A study of Mus musculus with 15 samples.

Results

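The genes described here are 10 genes of lipid droplet coating and triglyceride breakdown: the coat proteins Plin2, Plin3, Plin4 and Plin5, the lipases Pnpla2, Lipe and Mgll, the lipase regulators Abhd5 and G0s2, and the droplet assembly protein Fitm1. They were chosen by gene symbol for these roles, and all 10 were among the 13602 symbols of the deposited count table. All 10 also passed the filter on low counts that left 11062 genes for testing. Their levels were measured in gastrocnemius, a large muscle of the calf, from male mice. The 8 control animals were labelled wild type (floxed), and the 7 others carried a Cpt1b skeletal muscle knockout. Cpt1b encodes the muscle form of carnitine palmitoyltransferase 1, through which long-chain fatty acids enter mitochondria. Titles and series text give chow as the food, over 12 to 14 weeks, while each of the 15 samples has 45% HFD entered as its diet, so the labels do not settle which food was given. The age of the animals and the promoter driving Cre are not given in the sources used here.

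Muscle fibres store fatty acids as triglyceride in lipid droplets, which lie close to mitochondria. Perilipins coat the droplet surface and control the access of lipases. Adipose triglyceride lipase, the product of Pnpla2, removes the first fatty acid of a triglyceride. Abhd5 activates this lipase and G0s2 inhibits it. Hormone-sensitive lipase (Lipe) then acts on the diglyceride, and Mgll releases the last fatty acid from the monoglyceride. Several of these genes, Plin5 and Pnpla2 among them, are known targets of the fatty acid-activated PPAR receptors.

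The libraries were made by SAGE, which reads and counts 1 short tag per transcript, close to its 3' end, so a level stands for transcripts and does not scale with their length. The tags that should represent 9 of the genes were read from the longest protein-coding GENCODE M21 transcript of each gene on GRCm38. Each begins with CATG, in capitals, the usual anchoring site of SAGE, at its last occurrence in the transcript. No anchoring enzyme is named in the labels, and the table used here holds gene symbols and counts, so these are predictions. They are shown because, if the predictions hold, they are the parts of the transcripts that the counts below stand for.
Plin2: CATGatgttgctggccagatgacccct
Plin3: CATGccatagggctggagagatggctc
Plin4: CATGgtagccagcacctaagccaataa
Pnpla2: CATGctccactgccaggtgcatatgcc
Lipe: CATGgcttcctgagcctggcggcactg
Mgll: CATGtgagcatcgggggagtgctctgc
Abhd5: CATGgtgtgtgcagtgattgttgtaaa
G0s2: CATGctgtttcaaggtgccaccgaatc
Fitm1: CATGggctaccagctggcgccccactg

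These tags are 27 bases long, and none was found in a GENCODE transcript of another gene; the genome outside transcripts was not searched. With 2 mismatches allowed, the tag of Plin2 matched a site in 1 other gene. The tags of Lipe (chr7:25380045-25380071) and Fitm1 (chr14:55576676-55576702) lie in the last coding exon. The others lie in the 3' UTR. Those of the perilipins are at chr4:86656986-86657012 for Plin2, chr17:56277651-56277677 for Plin3 and chr17:56100612-56100638 for Plin4. Plin4 and Plin5 are neighbours on the minus strand of chromosome 17, with 1797 bases between them. The remaining tags are at chr7:141460627-141460653 for Pnpla2, chr6:88828117-88828143 for Mgll, chr9:122381363-122381389 for Abhd5 and chr1:193272377-193272403 for G0s2. For Plin4, G0s2 and Fitm1 every annotated coding transcript ends in the same tag. The tag shown is that of 1 of 4 coding transcripts for Plin2 and also for Pnpla2, and of 1 of 2 for Plin3. It is that of 2 of 3 for Abhd5, 3 of 6 for Mgll and 4 of 6 for Lipe.

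Library totals ran from 8334436 to 19397255 tags. Levels are CPM, tag counts scaled to library totals adjusted by TMM. Cpt1b itself ran from 4.44 to 13.1 CPM in controls (median 6.51) and from 1.096 to 6.46 CPM in knockouts (median 3.83). The groups overlapped, with 5 of 7 knockouts below all controls, and the log2 difference was -1.03 ± 0.31 (SE; edgeR adjusted p = 0.103, DESeq2 adjusted p = 0.0309). Which exons were deleted is not stated, so a 3' tag may not check the genotype. The 10 muscle fibre markers, such as Acta1, Ckm and Myh4, were all present, and 1 of them, Tnnt3, was called lower. Myh1 and Myh2 had positive log2 fold changes that did not pass (0.64 and 0.79, edgeR adjusted p = 0.401 and 0.307), and the rest had negative ones. On the leading principal component of all tested genes, which held 44.6% of the variance, control replicate 7 (51.2) and knockout replicate 4 (76.2) lay outside the range of the other 13 libraries (-43.0 to 29.7). Fold changes that rest on them are given with and without them.

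In knockout muscle 3 of the 10 genes rose and none fell, at an edgeR adjusted p under 0.05 over all genes tested. They were Plin5, the coat protein of droplets in oxidative tissue, the triglyceride lipase gene Pnpla2 and the monoglyceride lipase gene Mgll. Among all 11062 tested genes 2.17% were called, 1.67% higher and 0.497% lower. The other 7 genes did not pass. The median log2 fold change of the 10 genes was 0.43, beside 0.0047 over all tested genes, and 8 of the 10 had a positive fold change, beside 50.6% of all tested genes. The 15 libraries are bulk muscle, so fewer cells of a type and less RNA per cell cannot be told apart. Each library was taken as 1 animal, since the protocol counts 8 and 7 mice.

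**Figure D1:**
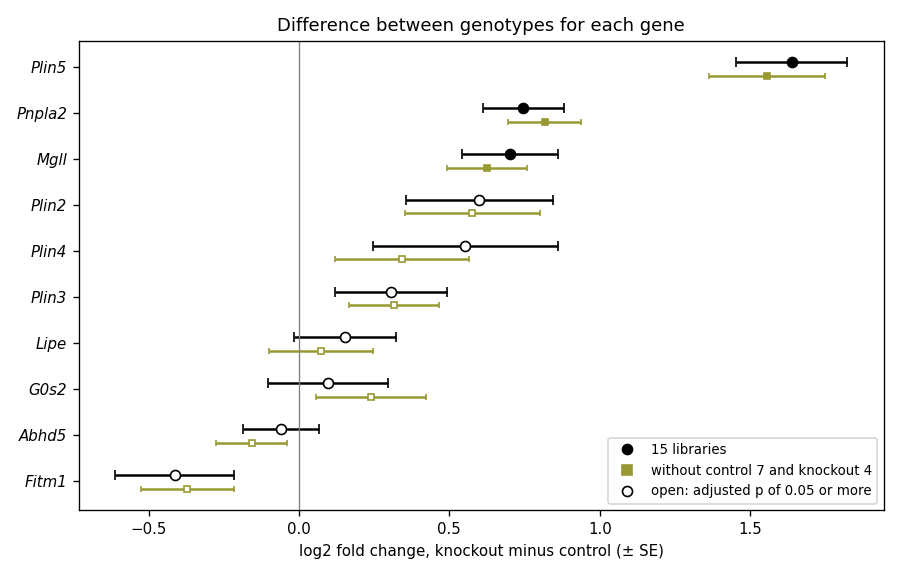
Log2 fold change of knockout minus control for each gene (x axis, ± SE), from all 15 libraries (circles) and without control replicate 7 and knockout replicate 4 (squares); filled symbols passed an adjusted p of 0.05. Plin5 stands farthest from 0 at 1.64, Pnpla2 and Mgll follow at 0.75 and 0.70, and these 3 are filled in both fits.

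Plin5 changed most of the 10. This perilipin binds adipose triglyceride lipase and its activator on the droplet and tethers droplets to mitochondria. Its level in controls was 6.90 CPM at the lowest, 7.84 at the median and 13.8 at the highest. In knockouts it was 18.9 CPM at the lowest, 31.3 at the median and 34.3 at the highest. The groups did not overlap: the lowest knockout, replicate 5, lay above the highest control, replicate 8. Knockout replicates 1 to 4 were close together between 31.3 and 34.3 CPM, and replicates 5, 6 and 7 lay lower, at 18.9, 26.0 and 22.1 CPM. The means were 9.17 ± 2.66 CPM (SD, n = 8) and 28.6 ± 6.23 CPM (SD, n = 7), a log2 fold change of 1.64 ± 0.19 (SE) with an edgeR adjusted p of 2.22e-05. Across all alternatives tried the log2 fold change lay between 1.56 and 1.74 and passed each time. Raw tags per library ran from 60 to 175 in controls and from 234 to 717 in knockouts.

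**Figure D2:**
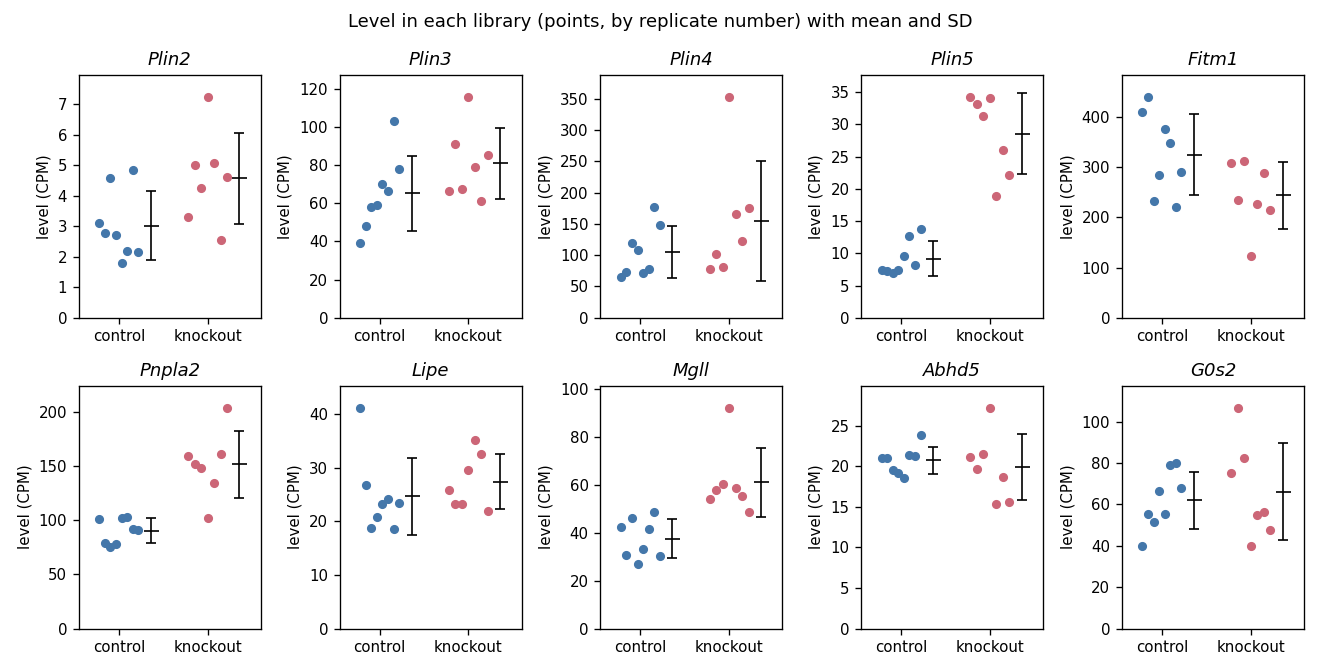
Level in CPM (y axis, from 0) of each of the 10 genes in the 8 control and 7 knockout libraries (points, in the order of their replicate numbers), with the mean and SD beside each group. Plin5 and Mgll are the genes whose groups do not overlap, and knockout replicate 4 is the highest point of Plin4, at 353 CPM, and of Mgll, at 92.4 CPM.

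The other coat proteins did not pass the test. Plin2, the perilipin found on droplets of nearly every cell type, had the lowest level of the 10 genes. It stood at 1.79 to 4.83 CPM in controls (median 2.75) and at 2.56 to 7.24 CPM in knockouts (median 4.61). All but 1 of the knockouts lay above the control median, 3 lay above the highest control, and the groups overlapped. The log2 difference was 0.60 ± 0.25 (edgeR adjusted p = 0.291, unadjusted p = 0.0251), on 22 to 152 tags per library. The highest library of each group was control replicate 7 and knockout replicate 4. Without knockout replicate 4 the log2 difference was 0.45 and did not pass (edgeR unadjusted p = 0.0778). It was 0.74 without control replicate 7 (edgeR adjusted p = 0.0869) and 0.58 without both (edgeR adjusted p = 0.173). With the leading component of the within-group deviations as a covariate, a fit added after the data were seen, the log2 difference was 0.61 and passed (edgeR adjusted p = 0.0120). That fit called 9.60% of all genes higher and 7.28% lower, and its covariate was derived from the same libraries.

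Plin3, which moves between the cytosol and nascent droplets, stood at 39.3 to 103 CPM in controls (median 62.7) and at 61.2 to 116 CPM in knockouts (median 78.7). The highest library of each group was the one that stood apart, control replicate 7 and knockout replicate 4, and the groups overlapped. Its log2 difference was 0.31 ± 0.19 (edgeR adjusted p = 0.481). It was 0.20 without knockout replicate 4 (edgeR adjusted p = 0.742), 0.44 without control replicate 7 (edgeR adjusted p = 0.129) and 0.32 without both (edgeR adjusted p = 0.259). Plin4, a perilipin with a long repeated helix that is abundant in adipocytes and muscle, was the highest of the 4 coat genes. It stood at 65.2 to 177 CPM in controls (median 93.1) and at 78.3 to 353 CPM in knockouts (median 123). The same 2 libraries were again the highest of their groups. The log2 difference of Plin4 was 0.55 ± 0.31 (edgeR adjusted p = 0.445) with all libraries and 0.20 without knockout replicate 4 (edgeR adjusted p = 0.820). Without both libraries the log2 difference was 0.34 (edgeR adjusted p = 0.407), and the Plin4 means were 94.8 ± 31.1 CPM (SD, n = 7) and 121 ± 41.9 CPM (SD, n = 6).

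Among the tags of the 5 perilipin genes, Plin1 included, Plin4 and Plin3 made up most in every library. Plin4 took 55.2% ± 6.35 in controls and 53.7% ± 10.6 in knockouts, and Plin3 took 35.2% ± 4.88 and 31.4% ± 5.75 (SD, n = 8 and n = 7). The share of Plin5 was 5.16% ± 1.59 in controls and 11.8% ± 4.85 in knockouts, with ranges of 2.75% to 7.73% and 6.64% to 18.4%. In knockout replicates 1, 2 and 3 it reached 18.4%, 14.2% and 16.8%. The shares of replicates 4, 5 and 7 (6.64%, 6.92% and 7.65%) lay within the control range, and in replicate 4 the library held 10803 perilipin tags, most of them from Plin4. Plin2 took 1.67% ± 0.59 and 1.74% ± 0.39. Plin1, the perilipin of adipocytes, took 2.84% ± 2.19 and 1.39% ± 0.63.

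**Figure D3:**
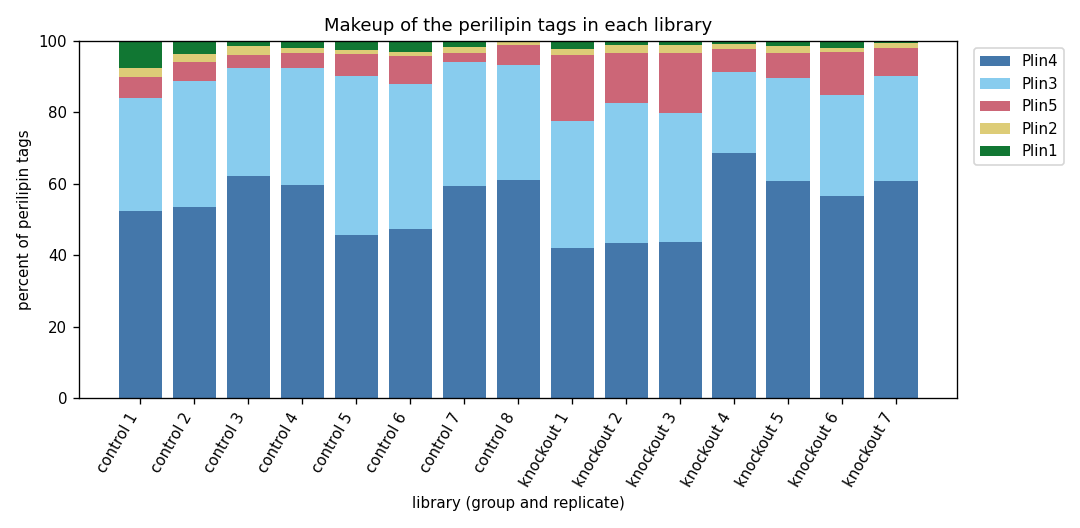
Share of each perilipin gene (y axis, percent of perilipin tags) in each of the 15 libraries (x axis). The Plin5 band is widest in knockout replicate 1, at 18.4%, and lies at 7.73% or below in all 8 controls.

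The rise of Plin5 was tested against the other coat genes as the log2 ratio of tags within each library, which does not depend on the scaling of libraries. The ratio of Plin5 to Plin3 rose by 1.32 on the log2 scale (95% interval 0.84 to 1.80), from 0.142 to 0.353 Plin5 tags per Plin3 tag, and every knockout lay above every control (two-sided exact permutation test, p = 0.000155, adjusted p = 0.00124 over 8 ratios). The ratio to Plin2 rose by 1.04 (0.24 to 1.85; exact permutation adjusted p = 0.0207) and the ratio to the neighbouring gene Plin4 by 1.20 (0.33 to 2.06; exact permutation adjusted p = 0.0189). In each of these last 2 ratios 4 of 7 knockouts lay above all controls. Thus Plin5 rose relative to each of the other 3 coat genes. The ratios here and below use the same tags as the fold changes and are not separate evidence of a rise.

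Of the lipases, Pnpla2 and Mgll rose and Lipe did not pass. Pnpla2 stood at 75.8 to 103.0 CPM in controls (median 91.5) and at 102 to 204 CPM in knockouts (median 152). The groups overlapped only through knockout replicate 4, at 102 CPM, which lay just below the highest control, replicate 6, while the other 6 knockouts lay at 134 CPM or above. The means were 90.4 ± 11.3 CPM (SD, n = 8) and 152 ± 30.6 CPM (SD, n = 7), a log2 fold change of 0.75 ± 0.13 (SE) with an edgeR adjusted p of 0.00369. The call held in every alternative tried, with a log2 fold change between 0.66 and 0.82.

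Mgll, whose product also breaks down the endocannabinoid 2-arachidonoylglycerol, stood at 27.2 to 48.5 CPM in controls (median 37.4) and at 48.6 to 92.4 CPM in knockouts (median 58.0). The groups did not overlap, but the lowest knockout, replicate 7, lay only just above the highest control, replicate 7. Knockout replicate 4 was the highest by far, and the other 6 knockouts lay between 48.6 and 60.4 CPM. The means were 37.5 ± 8.15 CPM (SD, n = 8) and 61.1 ± 14.3 CPM (SD, n = 7), a log2 fold change of 0.70 ± 0.16 (SE) with an edgeR adjusted p of 0.0227. In these TMM-adjusted levels Plin5 and Mgll were thus 2 of 10 genes with every knockout above every control. Among all tested genes 0.967% had this and 0.226% had every knockout below every control. Which genes separate depends on the scaling. On library totals alone Mgll in control replicate 7 (915 of 16238258 tags) lay above knockout replicate 7 (642 of 12243856), so its groups overlapped. Those of Pnpla2 then did not, with knockout replicate 4 (2151 of 19397255 tags) above the highest control, replicate 7 (1737 of 16238258). The Mgll call was lost in 6 of 24 alternatives. In 5 of them the margin was small, without control replicate 2, 4, 5 or 8 (edgeR adjusted p = 0.0542, 0.0513, 0.0511 and 0.0529) and with library totals alone as the scaling (0.0509). Without both libraries that stood apart it held (log2 0.63, edgeR adjusted p = 0.0103).

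Lipe, hormone-sensitive lipase, stood at 18.6 to 41.2 CPM in controls (median 23.4) and at 21.9 to 35.1 CPM in knockouts (median 25.8). Control replicate 1 was above every other library, and the groups overlapped over most of their range. Its log2 difference was 0.15 ± 0.17 (edgeR adjusted p = 0.692), 0.30 without control replicate 1 (edgeR adjusted p = 0.472) and 0.074 without both libraries that stood apart (edgeR adjusted p = 0.840). Within libraries the ratio of Pnpla2 to Lipe rose by 0.56 on the log2 scale (95% interval 0.10 to 1.02), from 3.75 to 5.51 (exact permutation adjusted p = 0.0231). That call was lost without knockout replicate 7 (0.43, exact permutation adjusted p = 0.0548). The ratio of Pnpla2 to Mgll differed by 0.025 (-0.50 to 0.51; exact permutation adjusted p = 0.926), an interval that leaves room for changes of unequal size in either direction.

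Neither regulator of adipose triglyceride lipase passed the test. Its activator Abhd5 had the narrowest spread of the 10 genes in controls, 18.6 to 23.8 CPM (median 21.03), a coefficient of variation of 7.91%. In knockouts it ran from 15.3 to 27.2 CPM (median 19.6), wider on both sides, with replicates 5 and 7 below all controls and replicate 4 above them. Its log2 difference was -0.060 ± 0.13 (edgeR adjusted p = 0.843). It was -0.15 without knockout replicate 4 (edgeR adjusted p = 0.676), -0.16 without that library and control replicate 7 (edgeR adjusted p = 0.470) and -0.0042 without knockout replicate 5 (edgeR adjusted p = 0.992). The inhibitor G0s2 stood at 39.996 to 79.8 CPM in controls (median 61.0) and at 40.1 to 107 CPM in knockouts (median 56.4). Knockout replicates 2 and 3 lay above all controls, and knockout replicate 4 was close to the lowest control. Its log2 difference was 0.10 ± 0.20 (edgeR adjusted p = 0.839), -0.067 without knockout replicate 2 (edgeR adjusted p = 0.891) and 0.24 without both libraries that stood apart (edgeR adjusted p = 0.485).

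The lipase gene rose relative to both regulators. The ratio of Pnpla2 to Abhd5 tags ran from 3.76 to 5.50 in controls and from 3.76 to 13.1 in knockouts. In 6 of 7 knockouts it lay above all controls, and knockout replicate 4 had the lowest value of its group. The log2 difference was 0.81 (95% interval 0.38 to 1.22; exact permutation p = 0.00249, adjusted p = 0.00663). The ratio of Pnpla2 to G0s2 ran from 1.15 to 2.52 in controls and from 1.42 to 4.30 in knockouts, with 3 knockouts above all controls and a log2 difference of 0.67 (0.18 to 1.17; exact permutation adjusted p = 0.0189). Relative to Plin5, in turn, Pnpla2 fell by 0.92 on the log2 scale (-1.39 to -0.44; exact permutation adjusted p = 0.00559), from 10.1 to 5.32 Pnpla2 tags per Plin5 tag. In 5 of 7 knockouts this ratio lay below all controls.

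**Figure D4:**
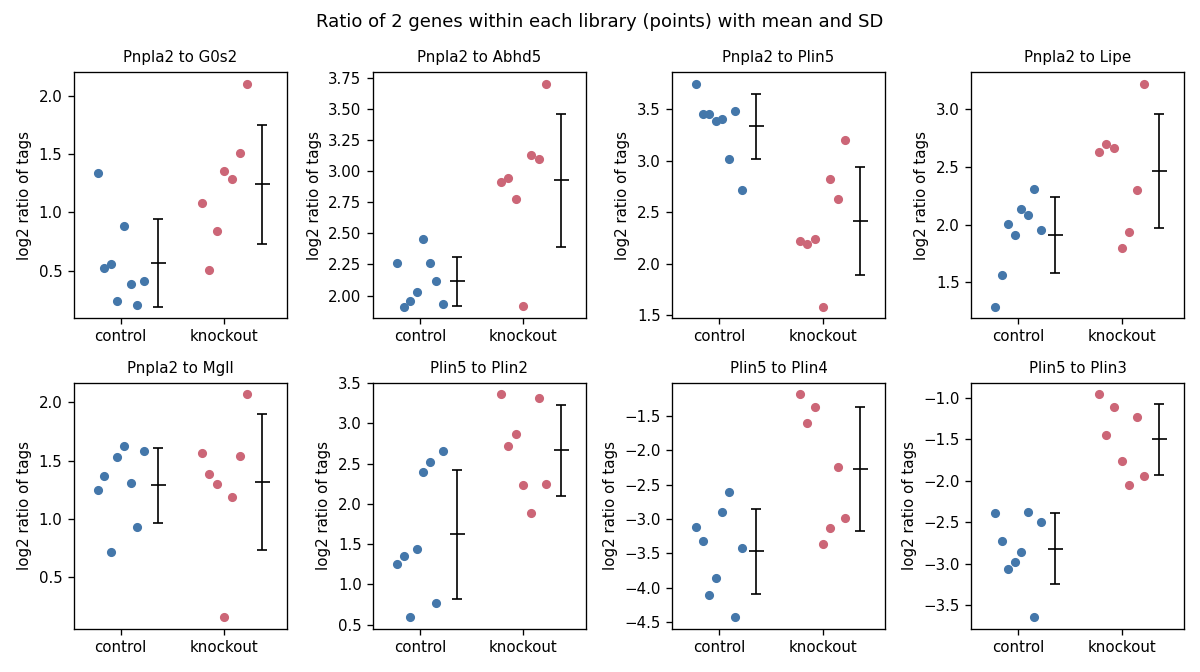
Log2 ratio of the tags of 2 genes within each library (points; y axis, scales differ between panels) in 8 controls and 7 knockouts, with mean and SD. For Plin5 to Plin3 all 7 knockouts lie above the controls, for Pnpla2 to Abhd5 6 of 7 do, and for Pnpla2 to Mgll the groups lie over each other.

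Fitm1, an endoplasmic reticulum protein of muscle that partitions triglyceride into droplets, had the highest level of the 10 genes and the lowest fold change. It stood at 220 to 440 CPM in controls (median 318) and at 122 to 313 CPM in knockouts (median 234). All 7 knockouts lay below the control median, 4 controls lay above all knockouts, and knockout replicate 4 was the lowest library. The means were 325 ± 81.0 CPM (SD, n = 8) and 244 ± 67.1 CPM (SD, n = 7). The log2 difference of -0.41 ± 0.20 did not pass (edgeR adjusted p = 0.372, unadjusted p = 0.0511), nor did it without both libraries that stood apart (-0.37, edgeR adjusted p = 0.202). With the leading component of the deviations as a covariate it was -0.43 and passed (edgeR adjusted p = 0.00194), in the fit that called 7.28% of all genes lower.

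Fitm1 and Plin4 followed the leading component in opposite ways. In control replicate 7 Plin4 was at its control maximum and Fitm1 at its control minimum, and knockout replicate 4 had the highest Plin4 and the lowest Fitm1 of all 15 libraries. After subtracting group means, the log2 levels of Plin4 and Fitm1 had a Pearson r of -0.92 over the 15 libraries, those of Plin3 and Plin4 0.73, and those of Plin5 and Fitm1 -0.0063. These values were not computed without control replicate 7 and knockout replicate 4. They describe libraries that share depth and makeup, and what the component stands for was not tested.

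**Figure D5:**
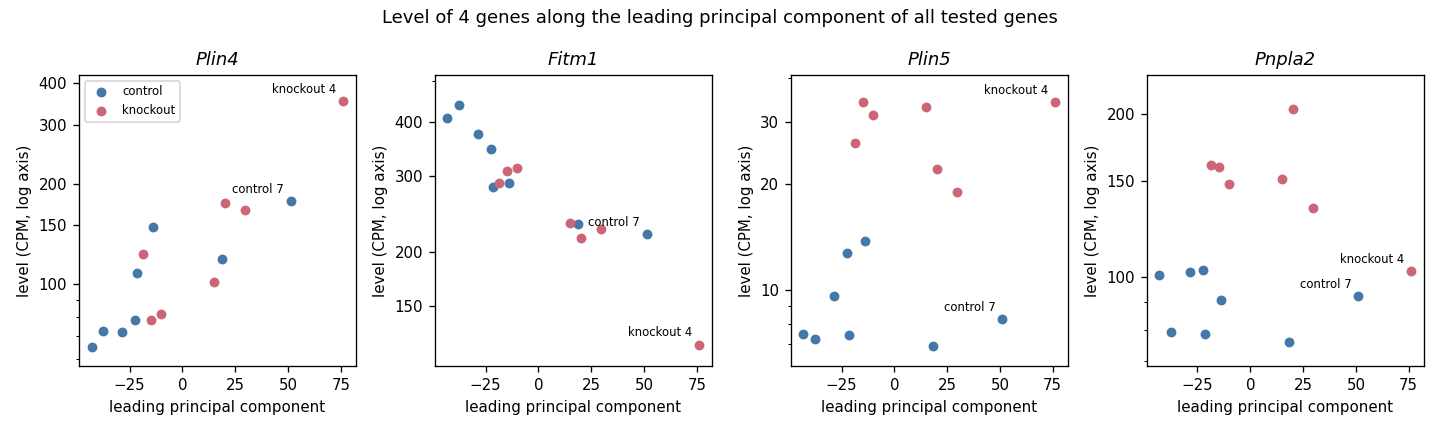
Level of Plin4, Fitm1, Plin5 and Pnpla2 (y axes, CPM on a log scale) against the position of each library on the leading principal component of all tested genes (x axis), with controls and knockouts in different colours. Plin4 is highest and Fitm1 lowest in knockout replicate 4, at 353 and 122 CPM, whereas for Plin5 every knockout lies above every control. The controls reach from -43.0 to 51.2 on the component and the knockouts from -18.7 to 76.2, so the groups share only part of the axis.

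Ordered by their mean level in controls, the genes ran Fitm1, Plin4, Pnpla2, Plin3, G0s2, Mgll, Lipe, Abhd5, Plin5 and Plin2. Fitm1 lay above Plin4, Mgll above Lipe, Abhd5 above Plin5 and Plin5 above Plin2 in 8 of 8 controls. Plin4 and Pnpla2 did not keep an order (4 of 8 controls), nor did Plin3 and G0s2 (4 of 8) or Lipe and Abhd5 (5 of 8). In knockouts Plin5 moved from rank 9 to rank 7, and it lay above Abhd5 in 7 of 7 knockouts and in none of the controls.

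RefSeq promoter sequence (GRCm38.p6) was searched for all 10 genes, in 13 windows of 200 bases that run from 250 to 51 bases before a start site. The PPAR response element is built of AGGTCA half-sites, and its full form was searched as the direct repeat of AGGTCA with 1 base between the copies. Both were searched on either strand, and the repeat holds half-sites by construction. None of the 13 windows held the direct repeat, which 0.0244% of all 32851 windows did. For a repeat this rare, its absence from 13 windows says little, and inexact copies were not searched. A single AGGTCA or its reverse complement was in 3 windows, those of Plin2, Abhd5 and Plin5, beside 11.4% of all windows. For each of the 3 genes that rose a window is shown, with the half-site in capitals. Plin5 and Mgll have 2 windows each. Of those of Plin5, the one shown holds the half-site and the other, chr17:56117349-56117548, does not, and neither of those of Mgll does. The windows shown are chr17:56117599-56117798 on the minus strand for Plin5, chr7:141454938-141455137 on the plus strand for Pnpla2 and chr6:88724162-88724361 on the plus strand for Mgll.
Plin5: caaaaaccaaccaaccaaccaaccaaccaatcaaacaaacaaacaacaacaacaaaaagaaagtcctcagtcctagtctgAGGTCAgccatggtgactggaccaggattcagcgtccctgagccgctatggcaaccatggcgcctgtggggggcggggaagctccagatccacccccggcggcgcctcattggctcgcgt
Pnpla2: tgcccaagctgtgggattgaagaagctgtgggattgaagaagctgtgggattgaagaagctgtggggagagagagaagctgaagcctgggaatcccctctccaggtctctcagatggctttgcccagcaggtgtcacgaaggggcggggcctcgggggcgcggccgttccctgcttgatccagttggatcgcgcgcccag
Mgll: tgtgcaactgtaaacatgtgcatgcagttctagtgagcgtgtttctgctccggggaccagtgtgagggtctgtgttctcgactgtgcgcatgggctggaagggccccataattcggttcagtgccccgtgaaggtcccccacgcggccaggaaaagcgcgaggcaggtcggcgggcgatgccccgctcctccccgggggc

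In the Plin5 window shown the half-site starts 170 bases before the start site of that window. The Pnpla2 and Mgll windows do not hold these letters, which says nothing of sequence farther from the start.

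Of 49 other genes of droplets and lipolysis, 45 were in the table, 43 were tested, and none passed (edgeR; 6 of 43 had an unadjusted p under 0.05, where 13.6% of all tested genes did). DESeq2 called 1 of them. Their median log2 fold change was 0.048, and 23 of 43 were positive. By role, the medians were 0.14 for 8 droplet assembly and size genes, -0.082 for 13 genes of Rab, SNARE and vesicle trafficking, -0.12 for 8 droplet-associated enzymes and degradation factors, 0.062 for 6 further lipases and 0.24 for 8 genes of hormonal and cAMP control.

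Ces1d, a carboxylesterase that hydrolyses triglyceride in adipocytes and liver, was among the 4 with the smallest p. It stood at 31.8 to 128 CPM in controls (median 97.9) and at 28.5 to 69.1 CPM in knockouts (median 46.9). All 7 knockouts lay below the control median. Its log2 difference was -0.80 ± 0.26 (edgeR adjusted p = 0.143), and it passed without control replicate 7 (-0.93, edgeR adjusted p = 0.0168). Also among them were Rab32, a small GTPase (log2 -0.86 ± 0.34, edgeR adjusted p = 0.271), and Vps13a, a lipid transfer protein at membrane contacts (0.39 ± 0.16, edgeR adjusted p = 0.302).

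Several of the 10 genes are also abundant in adipocytes. Of 12 adipocyte markers 10 were in the table. Their summed level ran from 58.7 to 145 CPM in controls (median 80.4) and from 43.0 to 219 CPM in knockouts (median 72.6), highest in knockout replicate 4. The defining markers Adipoq (28.4 CPM in the mean of both groups), Cfd (19.1 and 17.7), Plin1 (4.55 and 3.45) and Retn (1.04 and 1.16) were all present and none passed. Of the 8 adipocyte markers tested 1 fell, the hormone leptin, Lep (4.55 ± 2.78 to 1.27 ± 0.93 CPM, SD, n = 8 and n = 7; log2 -1.83 ± 0.43 (SE), edgeR adjusted p = 0.0295). With the log2 summed marker level as a covariate, the log2 fold changes of Plin5, Pnpla2 and Mgll were 1.64, 0.68 and 0.76, and the 3 genes passed.

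Within groups, the marker level was compared with each of the 10 genes, 20 relations in all. None passed after adjustment, and 2 had an unadjusted p of Pearson's r under 0.05, both in knockouts. Mgll had a Pearson r of 0.87 (n = 7, exact permutation p = 0.0435, adjusted p = 0.435) and a Spearman rho of 0.50 (exact permutation p = 0.267, adjusted p = 0.791), and r was -0.52 without replicates 4 and 7. Pnpla2 had a Pearson r of -0.87 (n = 7, exact permutation p = 0.0169, adjusted p = 0.337) and a Spearman rho of -0.68 (exact permutation p = 0.110, adjusted p = 0.791), and r was -0.15 without the same libraries. Those libraries were the farthest from the median marker level, and leaving them out narrows its range. The changed r therefore cannot show whether the relations rest on them. Lipe had a Spearman rho of 0.82 in knockouts (n = 7, exact permutation p = 0.0341, adjusted p = 0.683) with a Pearson r of 0.59 (exact permutation p = 0.143, adjusted p = 0.464), and r was 0.82 without the same libraries. No macrophage, endothelial, fibroblast or erythroid marker passed. The summed fibroblast markers had a median of 3468 CPM in controls and 1784 CPM in knockouts. By group means Col1a1 (1670 and 815 CPM), Dcn (836 and 697), Col3a1 (408 and 337) and Col1a2 (195 and 125) were lower in knockouts. Pdgfra (34.8 and 35.5 CPM) and Lum (34.0 and 38.1) were not. The part of the fibroblast markers in the results above was not tested.

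The genes whose library-to-library pattern was most like that of a given gene were named by the 3 highest Pearson r of log2 levels after subtracting group means, over 15 libraries and 7909 candidate genes with a mean of at least 50 tags. For Plin5 they were Ccdc23 (0.91), Cct5 (0.90) and Usp48 (0.87). For Pnpla2 Usp13 (0.85) and Atxn2l (0.84) were among them, and for Lipe they were Usp36 (0.90), Usp38 (0.87) and Nbas (0.85). For Mgll they were Car2, a carbonic anhydrase (0.97), Ppargc1a, the coactivator of mitochondrial gene expression (0.89), and Msrb3 (0.88). Without control replicate 7 and knockout replicate 4 the r of Mgll with Car2 was 0.93 and with Ppargc1a 0.75. That of Pnpla2 was then 0.73 with Usp13 and 0.77 with Atxn2l.

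For Plin2 the most alike were Pamr1 (0.93), Fut8 (0.93) and Rnf185 (0.93), for Plin3 Asxl1 (0.96), Tceb1 (0.96) and Cnbp (0.96), and for Plin4 Pisd-ps3 (0.96), Tenc1 (0.94) and Plekhj1 (0.94). For Fitm1 they were Vkorc1 (0.98), Tmbim1 (0.98) and Mrpl42 (0.97). The values were lower for Abhd5, with Ndufaf2 (0.82), Pvalb (0.81) and Erh (0.81), and for G0s2, with Zfand6 (0.84), 2010320M18Rik (0.78) and Rasa1 (0.77). Without control replicate 7 and knockout replicate 4 those of Abhd5 were 0.64, 0.60 and 0.72, and those of G0s2 were 0.83, 0.82 and 0.83. The r values are descriptions, taken as the highest of many, and share the depth and makeup of the libraries.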

How the data were processed

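Barcoded SOLiD SAGE libraries were made from 500 ng of Trizol RNA, per the labels' protocols. The authors deposited raw tag counts per gene symbol, which were used here. The submitters' processing notes name DESeq2 and the builds mm10 and GRCm38.p1, while for the aligner, counter and annotation nothing is stated (not given in the sources used here). No gene had a total under 22, so a filter on rare genes may precede the deposit. The authors' normalized table was not used. Groups and replicate numbers come from the titles. The 360 empty lines were dropped.

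All genes were fitted in R 4.3.3 by edgeR 4.0.16 (quasi-likelihood, robust, TMM, filterByExpr with a minimum count of 10, group as the only term). Benjamini-Hochberg adjustment ran over all genes tested, with a threshold of 0.05. The fit was checked on simulated data in which each gene varied independently. That check therefore does not cover shared shifts of many genes, such as the leading component. Standard errors are the log2 fold change over the square root of F. Log2 CPM used a prior count of 2. Ratios added 0.5 to each count and used exact permutation over 6435 splits, with intervals from inverting that test. No pair of libraries differed as little as sampling noise (lowest chi-square per gene 11.2, where 1 is noise). Alternatives were RLE scaling, library totals, no filter, DESeq2 1.42.0, limma 3.58.1 voom, a replicate block, each library left out, control replicate 7 and knockout replicate 4 left out, and 2 covariates.

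The 10 genes and the lists were chosen with earlier results of these data known. Named genes are the 10, Cpt1b, called genes of the other droplet list with its 4 lowest p values, and the 3 most alike genes. The depth limits low genes such as Plin2. A few items that these rules would name are not reported here.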

Additional observations from a re-analysis of the deposited data

Results flagged for a closer look

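In 20 groups (10 genes in 2 genotypes), 3 held a library whose gap to its nearest neighbour was large against the range of the group, by Dixon's criterion; chance gives about 1 in 20. Plin4 was 353 CPM in knockout replicate 4, where the next knockout was at 175 CPM. Mgll was 92.4 CPM in the same library, where the next knockout was at 60.4 CPM. Lipe was 41.2 CPM in control replicate 1, where the next control was at 26.8 CPM. Knockout replicate 4 also had the highest summed adipocyte markers (219 CPM) and the highest library total (19397255), and control replicate 1 the highest summed adipocyte markers of the controls (145 CPM) and the lowest total (8334436). Their part in these values was not tested.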

How the results depend on the processing

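The number of the 10 genes called higher, 3, was 2 to 3 over the fits that left out 1 library, 2 with library totals alone, 2 with the replicate block and 4 with the leading component as covariate (added after the data were seen), which also called 1 lower, Fitm1. Among the other droplet genes none was called; 1 was called higher by DESeq2, 2 with the adipocyte covariate and 4 with the leading component, which called 2 lower; 1 was lower without control replicate 7 and knockout replicate 4, and leaving out 1 library gave 0 to 1 in each direction. Over all genes 185 were higher and 55 lower; DESeq2 gave 310 and 145, the replicate block 98 and 19, the leading component 1062 and 805, leaving out 1 library 131 to 311 and 30 to 154. The number lower was 148 without control replicate 7 and knockout replicate 4 and 83 with the adipocyte covariate. RLE scaling shifted the median gene by -0.014 and library totals by 0.051. Leaving out 1 library gave G0s2 -0.067 (without knockout replicate 2) to 0.19 (without knockout replicate 4), and the adipocyte covariate -0.0069. The cause was not tested.

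Replicate numbers did not pair the libraries: same-numbered libraries had correlations of deviations from -0.45 to 0.31. With the replicate block Mgll was 0.66 (edgeR adjusted p = 0.224), and Plin5 and Pnpla2 passed. With 7 pairs the smallest sign-flip p is 0.0156, and in that paired test no ratio had an adjusted p under 0.05. For Pnpla2 the log2 differences were 0.65 against G0s2 (sign-flip adjusted p = 0.0833) and 0.56 against Lipe (0.0893). Against Abhd5 and Plin5 they were 0.79 and -1.01, both at a sign-flip adjusted p of 0.05. For Plin5 they were 1.19 against Plin2, 1.20 against Plin4 and 1.36 against Plin3, each at a sign-flip adjusted p of 0.05. Leaving out 1 library gave 0.53 to 0.80 for Pnpla2 to G0s2, 0.68 to 0.98 to Abhd5, -1.05 to -0.78 to Plin5, 0.43 to 0.67 to Lipe and -0.10 to 0.22 to Mgll; for Plin5 it gave 0.89 to 1.19 to Plin2, 1.02 to 1.38 to Plin4 and 1.20 to 1.41 to Plin3.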
